A study of Mus musculus with 76 samples.

Results

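The 34 genes described here encode voltage-gated sodium, potassium, HCN and calcium channels, out of the 38924 genes of the deposited table. They are a named list. It holds 5 pore-forming and 3 beta subunit genes of sodium channels, 15 potassium channel genes, 3 HCN genes and 8 calcium channel pore genes. No measured value entered the choice rule, but the list was chosen with earlier results of these data known. The RNA came from stem cell-derived neural cultures of 2 mouse strains without a labelled engineered allele. One is C57BL/6J, called B6 here, and the other is WSB/EiJ, a wild-derived strain called WSB. Cultures were taken at 3 stages: differentiation to neural progenitor cells (NPC), maturation, and axonal regrowth (axon). At each stage they were controls or had been treated with ID-8, which inhibits the kinase DYRK1A, at a dose and for a time that the labels do not give. At the axon stage control and ID-8 cultures were each left uncut or axotomized (cut). The NPC stage had 4 groups of 6 libraries and maturation 4 groups of 4. The axon stage had 8 groups of 4, except WSB with ID-8 uncut and B6 with ID-8 cut, which had 3. Together these were 70 libraries in 16 groups. The labels do not say how many stem cell lines stood for a strain or whether each library came from its own culture, so p-values measure the spread between these libraries, which may in part be technical.

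Voltage-gated channels open and close with the membrane potential and so set how neurons fire. Sodium channels carry the upstroke of the action potential, and their beta subunits alter gating and placement in the membrane. Potassium channels of the Kv families repolarise the cell and limit firing rate, HCN channels open on hyperpolarisation and favour rhythmic firing, and calcium channels couple activity to transmitter release and transcription, with T-type channels opening near rest.

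Depth ran from 22882468 to 131489457 expected counts per library at the NPC stage, from 25122699 to 41736072 at maturation and from 20368997 to 99188615 at the axon stage. Levels are given as CPM, the usual scaling of counts to a common library total, here after TMM. The 10 pan-neuronal markers summed to a mean of 2851 CPM in B6 and 4326 CPM in WSB control NPC cultures, 2342 and 2628 CPM at maturation, and 5556 and 4882 CPM in uncut control axon cultures. The 7 astrocyte markers summed to 188.1 to 303 CPM in control B6 NPC libraries, where Gfap and S100b had means under 0.1 CPM, and to 1667 to 2558 CPM in B6 and 1408 to 13339 CPM in WSB uncut control axon libraries. In these whole cultures fewer cells of a type and less RNA per cell cannot be told apart. The library labelled as replicate 3 of the cut WSB axon cultures with ID-8 did not vary with the other libraries of its sample set (libraries of a strain that share a set name or number in the deposited sample names), and results that it touches are given with and without it.

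The promoters of 4 genes are shown first, because Scn4b, Kcnc4, Kcnc1 and Cacna1i were the members higher with ID-8 in mature B6 cultures. They are RefSeq windows on build GRCm38.p6, from 250 bases before to 50 bases after the annotated start, 5′ to 3′ on the strand of the gene. That of Scn4b is chr9:45138374-45138673 on the plus strand, Kcnc4 chr3:107458849-107459148 on the minus strand, Kcnc1 chr7:46396218-46396517 on the plus strand and Cacna1i chr15:80286988-80287287 on the plus strand. Capitals mark matches, on either strand, to CCAAT, to the GC box GGGCGG or to TGACG, the half-site of the cAMP response element.
Scn4b: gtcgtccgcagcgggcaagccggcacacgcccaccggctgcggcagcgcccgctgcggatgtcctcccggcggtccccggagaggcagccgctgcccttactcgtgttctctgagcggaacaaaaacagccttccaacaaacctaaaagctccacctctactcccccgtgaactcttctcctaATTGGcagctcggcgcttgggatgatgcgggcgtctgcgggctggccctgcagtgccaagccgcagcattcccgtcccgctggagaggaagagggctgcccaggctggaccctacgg
Kcnc4: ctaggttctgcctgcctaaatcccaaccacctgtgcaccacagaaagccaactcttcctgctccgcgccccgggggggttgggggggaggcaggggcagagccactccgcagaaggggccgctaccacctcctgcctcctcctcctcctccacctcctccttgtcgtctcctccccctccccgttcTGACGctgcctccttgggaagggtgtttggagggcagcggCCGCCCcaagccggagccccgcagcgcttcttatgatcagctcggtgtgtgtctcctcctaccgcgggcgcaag
Kcnc1: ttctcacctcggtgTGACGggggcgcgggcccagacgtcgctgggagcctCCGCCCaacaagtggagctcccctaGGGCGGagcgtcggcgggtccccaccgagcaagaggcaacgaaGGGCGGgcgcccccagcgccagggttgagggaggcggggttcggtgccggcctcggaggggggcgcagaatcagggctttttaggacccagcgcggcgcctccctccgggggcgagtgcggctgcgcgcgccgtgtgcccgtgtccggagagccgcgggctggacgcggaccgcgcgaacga
Cacna1i: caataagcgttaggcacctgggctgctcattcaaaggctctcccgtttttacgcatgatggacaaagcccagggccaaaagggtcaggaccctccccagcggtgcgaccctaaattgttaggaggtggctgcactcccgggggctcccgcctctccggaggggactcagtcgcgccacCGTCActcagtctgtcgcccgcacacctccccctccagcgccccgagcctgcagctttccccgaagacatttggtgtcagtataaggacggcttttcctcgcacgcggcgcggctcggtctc

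TGACG was present in the windows of Kcnc4, Kcnc1 and Cacna1i, and in 20.8% of the 32851 promoters of the table. CCAAT was present in that of Scn4b, and in 37.4% of all promoters. GGGCGG was present in those of Kcnc4, with 1 match, and Kcnc1, with 3 matches, and in 35.7% of all promoters. None of the 4 windows held TATAAA (13.6% of all promoters) or either half-site of the RE1 element, CAGCACC (7.14%) and GGACAGC (6.56%). Of the 34 genes 24 were in the table, with 32 windows, and among these 24 genes 6 held TGACG, 7 CCAAT and 13 GGGCGG. A match describes the letters of the window.

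All 34 genes passed the low-count filter of every fit. Per kilobase of exon, the beta subunit gene Scn3b had the highest mean of the 34 in all 12 NPC and axon groups, with 44.0 ± 5.25 CPM per kb in uncut control B6 axon cultures (SD, n = 4). There it stood apart from the next gene, the N-type calcium channel pore Cacna1b, at 17.7 ± 7.57 CPM per kb, and it stood apart in the 3 other B6 axon groups too, while in the 4 NPC and 4 WSB axon groups it did not stand apart from the gene ranked next. At maturation Scn2b, another beta subunit gene, was first in control B6 (24.0 ± 5.64 CPM per kb, n = 4), and in control WSB Hcn2 (17.5 ± 3.21) and Scn2b (17.1 ± 5.72) did not differ beyond their spread. In CPM, the ratio of the highest to the lowest group mean ran from 2.89 for Scn9a to 151.6 for Scn1a. The lowest group was B6 NPC cultures with ID-8 for 25 of the 34 genes.

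**Figure D1:**
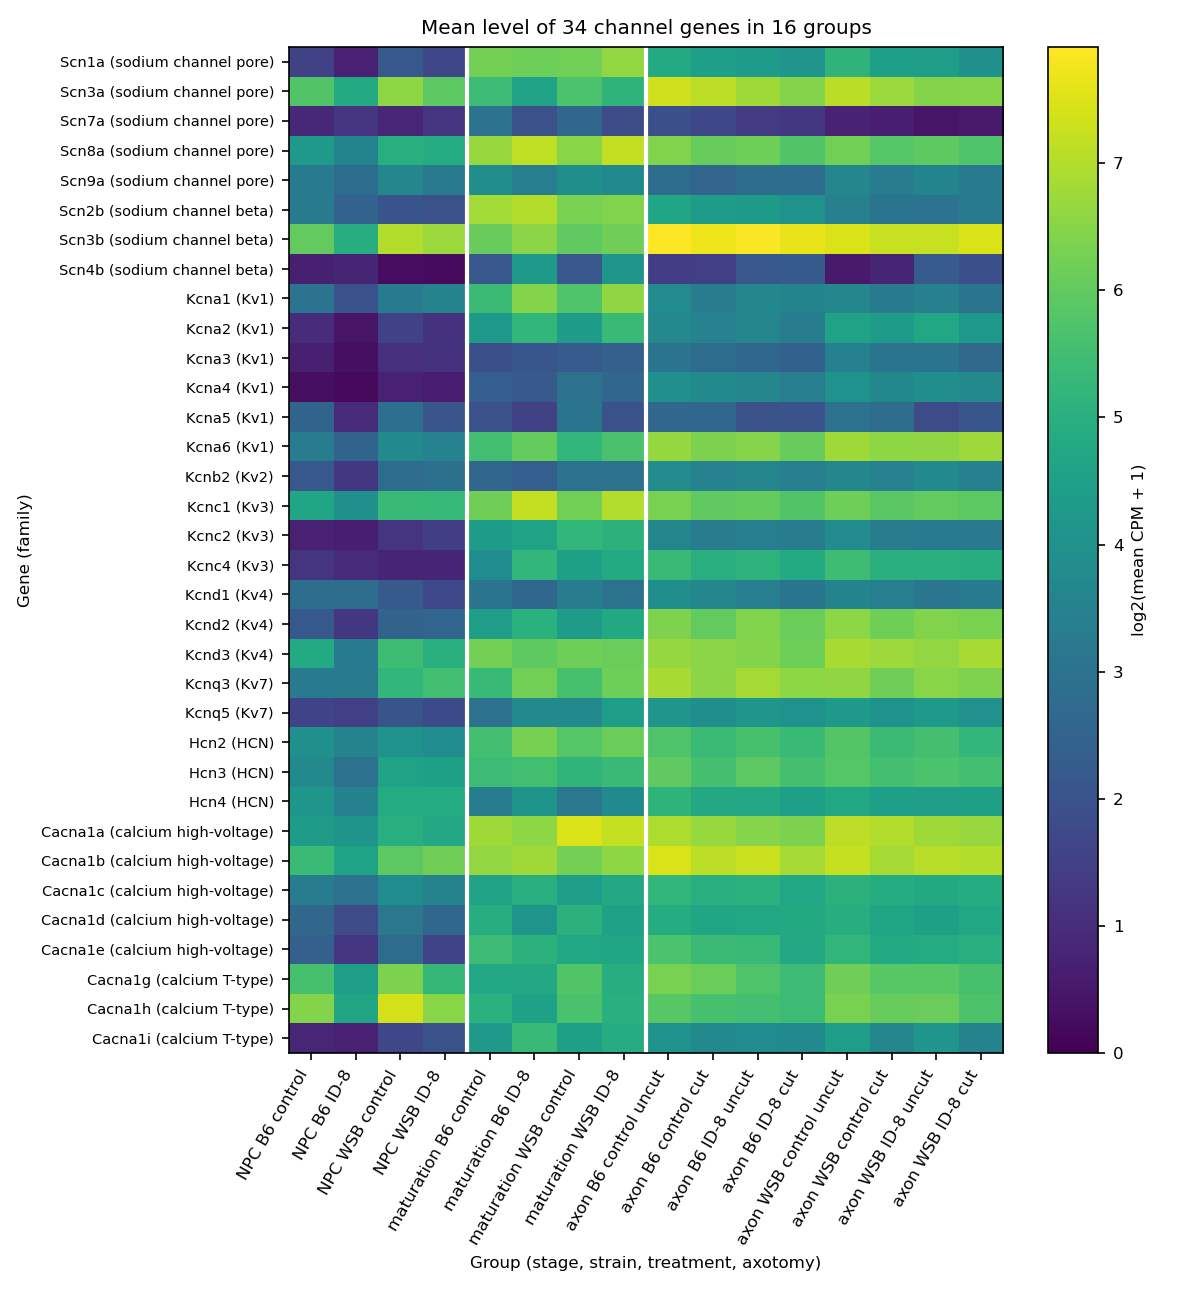
Mean level of each of the 34 genes (rows) in each of the 16 groups (columns), with the colour scale in log2 of the mean CPM plus 1. Most genes are lowest in the NPC groups, and Scn1a spans the widest range, 151.6-fold between its lowest and highest group.

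Stage was compared first, in control cultures with uncut axons, to ask which channel genes change as the cultures mature. Axon and NPC cultures were compared within the library block (a range of library numbers in the titles) that holds both, with NPC replicates 4 to 6, all 4 B6 axon libraries and WSB axon replicates 1 to 3. In B6 29 of the 34 members were higher and 2 lower at the axon stage (edgeR's quasi-likelihood test, adjusted p under 0.05), where 63.6% of 17400 genes were called, 30.3% higher and 33.3% lower. In WSB 23 were higher and 1 lower, where 29.1% of genes were higher and 29.7% lower. The members' median difference was 2.06 on the log2 scale in B6 and 1.46 in WSB, against -0.04 and -0.01 for all genes tested. All 5 high-voltage calcium pore genes and all 3 Kv4 genes were higher in both strains, and Kcna1, Kcna5 and Cacna1g did not pass the test in either.

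Other markers moved between the same libraries. Of the 10 pan-neuronal markers 6 were higher and 0 lower at the axon stage in B6, and 4 and 2 in WSB. All 6 pluripotency markers were lower in both strains, and 7 and 6 of the 7 astrocyte markers were higher. Of the 7 fibroblast markers 6 were higher in B6 and 5 in WSB. Of the 8 neural progenitor markers 5 were lower and 0 higher in B6, and 4 lower and 2 higher in WSB. The part of these markers in the result was not tested.

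Of the sodium channel genes 4 of 5 pores and 3 of 3 beta subunits rose in B6, and 2 and 2 in WSB. Scn1a, a pore gene prominent in fast-spiking inhibitory neurons, read 3.72, 2.56 and 1.59 CPM in the compared B6 NPC libraries and 27.2, 28.7, 25.9 and 29.3 in the axon libraries. The WSB libraries read 4.10, 6.24 and 3.29 CPM and then 29.6, 33.6 and 38.5. The axon libraries of each strain lay close together and above every NPC library. The difference was 3.41 ± 0.30, adjusted p = 2.63e-06 in B6 and 2.82 ± 0.30, adjusted p = 1.12e-05 in WSB. Scn9a, a pore gene known from peripheral sensory neurons, was the sodium channel gene lower in B6 (-0.85 ± 0.28, adjusted p = 0.0170).

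Among potassium channel genes, Kcnc4, of the Kv3 family that allows fast firing, had the smallest p in both strains. It read 0.719, 1.06 and 1.31 CPM in the compared B6 NPC libraries and 41.3, 51.3, 30.5 and 33.8 in the axon libraries (5.25 ± 0.28, adjusted p = 1.09e-07). Its WSB values were 0.650, 0.757 and 0.629 CPM and then 62.3, 43.5 and 51.0 (6.19 ± 0.30, adjusted p = 6.62e-08). No axon library overlapped an NPC library. Kcnq5, of the Kv7 family that carries the M-current, read 1.82, 1.85 and 1.91 CPM and then 16.2, 18.7, 15.6 and 15.9 in B6 (3.16 ± 0.22, adjusted p = 5.41e-07). In WSB it read 3.28, 2.58 and 3.63 CPM and then 23.0, 14.7 and 15.7 (2.43 ± 0.22, adjusted p = 3.12e-06), again without overlap. The Kv1 genes Kcna6 (3.32 ± 0.33 in B6, 3.14 ± 0.33 in WSB) and Kcna4 (5.34 ± 0.55 and 4.09 ± 0.52) and the A-type Kv4 gene Kcnd2 (4.24 ± 0.48 and 4.32 ± 0.49) rose in both strains, with adjusted p of at most 3.91e-05. Kcnc2, of the Kv3 family, was among the 8 smallest p in B6 (3.51 ± 0.39) and the axonal Kv1 gene Kcna2 in WSB (3.15 ± 0.39).

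The T-type calcium channel genes went in different directions. Cacna1i rose in both strains (3.76 ± 0.36, adjusted p = 3.68e-06 in B6 and 2.84 ± 0.35, adjusted p = 2.79e-05 in WSB). Cacna1h was the 1 member lower in both: it read 142.7, 112.7 and 70.7 CPM in the compared B6 NPC libraries and 68.2, 65.6, 49.8 and 45.6 in the axon libraries, without overlap (-0.93 ± 0.27, adjusted p = 0.00895). The WSB values were 192.6, 200.3 and 142.8 CPM and then 96.2, 60.1 and 63.7, without overlap (-1.34 ± 0.29, adjusted p = 0.00183). The call in B6 was lost without NPC replicate 4, the highest of these libraries (adjusted p = 0.0547).

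The change from NPC to axon differed between the strains for 1 member, Kcnq3, a partner of Kcnq5 in the Kv7 family (-2.24 ± 0.55, adjusted p = 0.0438 for WSB minus B6), where 1.25% of genes were lower. Kcnq3 read 17.9, 10.8 and 9.66 CPM in the compared B6 NPC libraries and 155.1, 156.3, 75.8 and 74.6 in the axon libraries (3.17 ± 0.41, adjusted p = 3.81e-05). In WSB it read 55.0, 78.4 and 31.0 CPM and then 128.3, 92.6 and 106.8 (0.93 ± 0.39, adjusted p = 0.0588). The axon libraries of the strains overlapped, and the NPC libraries of WSB were the higher ones. The call of the difference was lost without any 1 of 8 libraries, NPC WSB replicates 4 or 5, NPC B6 replicates 5 or 6, axon B6 replicates 1 or 2, and axon WSB replicates 2 or 3, with adjusted p from 0.0627 to 0.112.

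Of 23 subunit genes that accompany the pores 18 rose and 0 fell in B6 and 14 and 0 in WSB, with medians of 2.35 and 1.77. Among them were Kcnip4, a partner of Kv4 channels (3.66 ± 0.22 in B6 and 3.23 ± 0.22 in WSB), and Kcns2, a modifier of Kv2 channels (5.86 ± 0.37 and 4.61 ± 0.35). Of 12 genes of the axon initial segment and node, where sodium channels gather, 8 rose and 1 fell in B6 and 8 and 1 in WSB. Cntn1 (5.06 ± 0.42 and 5.30 ± 0.43) and Lgi1 (6.02 ± 0.50 and 3.92 ± 0.45) were among the former.

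Between maturation and the NPC stage 25 members were higher and 4 lower at maturation in B6, where 36.0% of 17987 genes were higher and 35.0% lower. In WSB 23 were higher and 5 lower, where 37.8% were higher and 34.5% lower. The members' medians were 2.15 and 1.66, against 0.01 and 0.08 for all genes. Mature libraries and NPC libraries come from different library blocks, so stage and library block cannot be told apart. The strains shared 22 higher members and 3 lower ones, Hcn4, Cacna1g and Cacna1h.

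Scn2b had the smallest p in both strains. It had 6.54 to 10.8 CPM (median 8.51) in B6 and 1.91 to 4.04 CPM (median 3.42) in WSB control NPC libraries. At maturation it read 90.9, 88.2, 141.6 and 125.6 CPM in B6 (3.70 ± 0.23, adjusted p = 3.13e-13) and 55.3, 59.0, 96.4 and 108.4 in WSB (4.65 ± 0.25, adjusted p = 1.2e-14). The stages did not overlap, and replicates 3 and 4, which the deposited sample names tag as a separate experiment, were above replicates 1 and 2 in both strains. Scn1a had 0.468 to 3.72 CPM (median 1.79) in B6 and 1.40 to 6.24 CPM (median 3.31) in WSB NPC libraries, and read 64.7, 63.2, 91.0 and 81.0 and 42.8, 50.4, 95.9 and 105.3 CPM at maturation, also without overlap (5.27 ± 0.38, adjusted p = 3.42e-12 in B6 and 4.36 ± 0.36, adjusted p = 4.99e-11 in WSB). Scn8a, the main sodium channel pore of mature axon initial segments, rose in B6 (2.46 ± 0.24) and in WSB (1.54 ± 0.24).

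Kcnc4 read 11.1, 11.8, 16.1 and 14.5 CPM in mature B6 and 18.0, 16.4, 25.4 and 26.7 in mature WSB libraries, above every NPC library (3.39 ± 0.27 and 4.79 ± 0.29). The other Kv genes with the smallest p were Kcnc2 (4.96 ± 0.44 in B6, 4.82 ± 0.43 in WSB) and Kcna2 (4.16 ± 0.37 and 3.28 ± 0.36). Cacna1a, the P/Q-type pore that drives transmitter release, rose in both strains (2.45 ± 0.21 and 2.49 ± 0.21), and Cacna1i was among the 8 smallest p in B6 (4.57 ± 0.41), as were Kcnq5 (1.96 ± 0.21) and Hcn2 (1.81 ± 0.19) in WSB. The members lower at maturation were Cacna1h (-1.42 ± 0.26 in B6, -1.80 ± 0.26 in WSB), Cacna1g (-0.91 ± 0.24 and -0.63 ± 0.24) and Hcn4 (-0.92 ± 0.29 and -1.90 ± 0.30) in both strains, Kcna5 in B6 (-0.79 ± 0.30), and the fetal sodium pore gene Scn3a (-0.93 ± 0.28) and Scn3b (-1.06 ± 0.36) in WSB. The call of Kcna5 was lost without mature B6 replicate 1 or 2 (adjusted p = 0.104 and 0.0738), and that of Cacna1g in WSB without mature WSB replicate 1 or 2 (adjusted p = 0.0681 and 0.0558).

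Over the same libraries 3 of 10 pan-neuronal markers were higher and 4 lower at maturation in B6, and 2 and 5 in WSB. All 7 fibroblast markers were higher in both strains, and 7 and 6 of 7 astrocyte markers. All 6 pluripotency markers were lower in both strains (medians -10.23 and -5.44), with sums of at most 1.22 CPM in mature B6 and 1.83 CPM in mature WSB libraries, and 6 and 7 of 8 neural progenitor markers were lower. The part of these in the result was not tested. Of the accompanying subunits 16 rose and 2 fell in B6, and 16 and 2 in WSB, and of the axon initial segment and node genes 8 and 1 in B6 and 7 and 2 in WSB.

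Axon and mature cultures, mostly from different library blocks as well, differed in both directions. In B6 17 members were higher and 4 lower at the axon stage, where 23.4% of genes were higher and 21.0% lower, and in WSB 10 and 6, where 23.2% and 22.1% were. Scn3a, Scn3b, Kcna3, Kcna4, Kcna6, Kcnc4, Kcnd2, Hcn4, Cacna1b and Cacna1h were higher in both strains, and Scn1a, Scn2b and Kcna1 lower in both. In B6 the T-type gene Cacna1g (1.67 ± 0.26), Kcnq5 (1.29 ± 0.23) and Kcnd1 (1.00 ± 0.23) were also among the 8 smallest p of the higher members, and Scn9a was lower (-1.16 ± 0.38). In WSB Scn4b (-2.81 ± 0.53), Scn7a (-2.84 ± 0.69) and Kcnc2 (-1.54 ± 0.43) were lower.

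Markers of cell types moved between the same libraries. Of the pan-neuronal markers 9 of 10 in B6 and 7 in WSB were higher at the axon stage. In B6 4 of 6 pluripotency, 3 of 7 oligodendrocyte, 1 of 7 astrocyte and 3 of 8 neural progenitor markers were higher too, with 1 of the last lower, and of 7 fibroblast markers 3 were higher and 1 lower. In WSB 4 of 7 astrocyte, 5 of 7 oligodendrocyte and 5 of 8 neural progenitor markers were higher, with 1 of the last lower, 3 of 7 fibroblast markers were lower, and 0 of 6 pluripotency markers were called. The pluripotency markers summed to at most 3.68 CPM in all of these libraries. The part of these markers in the result was not tested.

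Scn3a read 34.8, 32.1, 49.8 and 51.1 CPM in mature B6 libraries and 191.2, 227, 110.4 and 121.2 in axon libraries (1.98 ± 0.31, adjusted p = 1.43e-05). In the other strain, WSB, it read 36.3, 34.4, 65.2 and 65.6 CPM and then 202, 121.5, 122.9 and 90.6 (1.38 ± 0.31, adjusted p = 0.000737). The stages did not overlap in either strain. Scn2b went the other way, with 28.9, 31.1, 17.0 and 22.3 CPM in B6 axon libraries and 10.6, 10.1, 11.7 and 6.94 in WSB, all below every mature library (-2.14 ± 0.26, adjusted p = 3.25e-07 and -3.06 ± 0.27, adjusted p = 3.85e-09).

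Kcnd2 read 19.3, 18.3, 21.5 and 23.0 CPM in mature B6 libraries and 105.3, 98.1, 58.8 and 67.6 in axon libraries (2.03 ± 0.36, adjusted p = 5.44e-05). Its values in WSB were 11.2, 13.6, 25.8 and 27.1 CPM and then 115.6, 99.9, 104.8 and 55.4 (2.23 ± 0.36, adjusted p = 1.98e-05). Hcn4, the HCN gene best known as the cardiac pacemaker channel, showed the same order. It read 7.81, 7.68, 10.9 and 9.86 CPM in mature B6 libraries and 40.8, 53.6, 20.2 and 22.3 in axon libraries (1.95 ± 0.32, adjusted p = 2.27e-05), and 4.53, 5.41, 9.68 and 11.4 and then 41.5, 18.8, 20.2 and 24.0 CPM in WSB (1.72 ± 0.32, adjusted p = 0.000104). Neither gene's stages overlapped. In WSB the calls of Kcnc4, Kcna3 and Cacna1b were lost without axon replicate 1 (adjusted p = 0.0533, 0.0614 and 0.122), those of Kcna3 and Cacna1b also without mature replicate 1 or 2, and that of Scn1a without mature replicate 3 or 4 (adjusted p = 0.0510 and 0.0637).

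**Figure D2:**
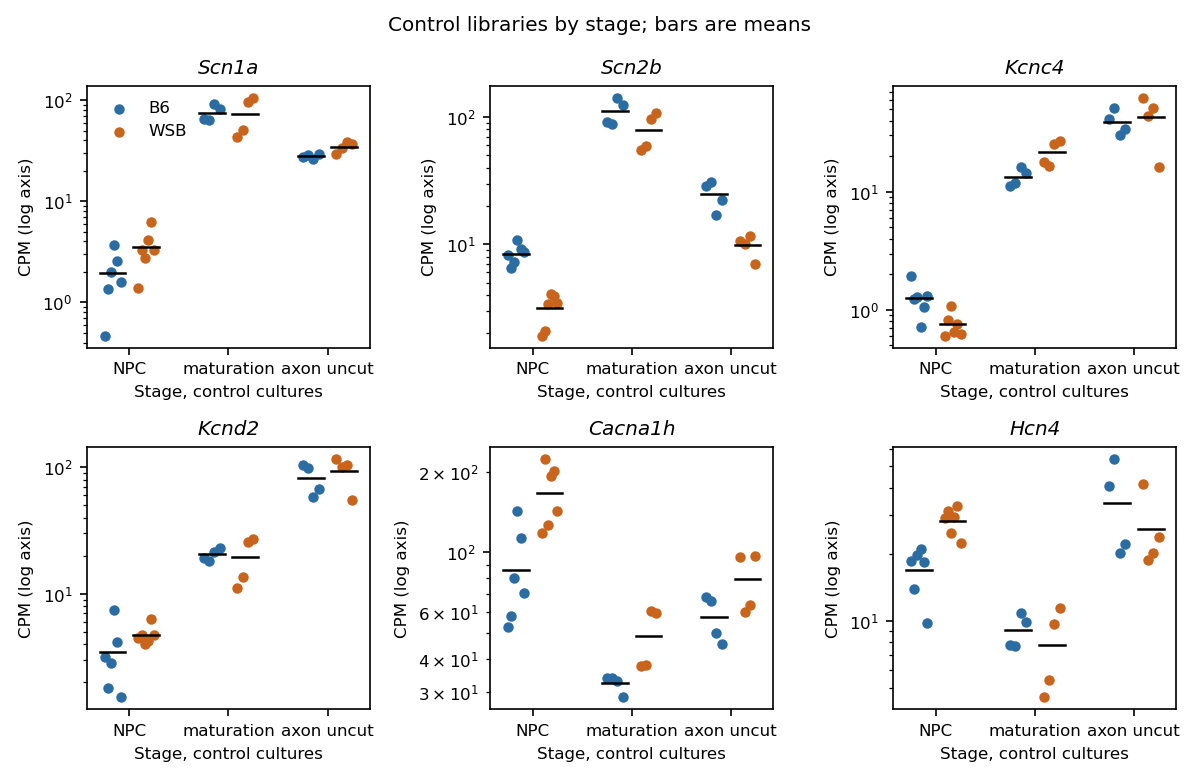
Level in CPM (log axis) of 6 genes in every control library of the 3 stages, with axon cultures uncut and the strains in separate colours; each point is 1 library. Scn1a and Scn2b are highest at maturation, Kcnc4 and Kcnd2 at the axon stage, Hcn4 at the axon stage in B6 but not in WSB, where NPC and axon libraries overlap, and Cacna1h is lower at the axon stage than in most NPC libraries.

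Control NPC cultures of the strains were compared next. In WSB 15 members were higher and 4 lower than in B6, where 45.0% of 17248 genes were called, 20.0% higher and 25.0% lower, with a member median of 0.68 against -0.00 for all genes. All 3 T-type genes and both Kv7 genes were higher in WSB, while of the sodium beta subunit genes Scn3b was higher and Scn2b and Scn4b lower. Within the first library block 11 members were higher and 2 lower. Within the second, with 3 libraries a group, 1 was higher, Kcnq3 (2.10 ± 0.58, adjusted p = 0.0337), and 1 lower, Scn2b (-1.32 ± 0.21, adjusted p = 0.00236). The share of all genes called within each block is not given here, so the lower count cannot be read as particular to the members.

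Scn2b had 6.54 to 10.8 CPM (median 8.51) in B6 and 1.91 to 4.04 CPM (median 3.42) in WSB, without overlap (-1.45 ± 0.21, adjusted p = 8.07e-06). Kcnd1, of the A-type Kv4 family, had 5.00 to 7.87 CPM (median 6.23) in B6 and 2.70 to 4.70 CPM (median 3.81) in WSB, also without overlap (-0.73 ± 0.17, adjusted p = 0.00121). Kcnq3 had 3.68 to 17.9 CPM (median 8.45) in B6 and 10.9 to 78.4 CPM (median 30.1) in WSB (2.06 ± 0.46, adjusted p = 0.00105). The highest B6 library lay within the WSB range.

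The calcium channel genes Cacna1h and Cacna1a overlapped between the strains as well. Cacna1h had 52.6 to 142.7 CPM (median 75.3) in B6 and 117.9 to 222 CPM (median 167.7) in WSB (0.99 ± 0.22, adjusted p = 0.00122). Cacna1a had 11.3 to 30.5 CPM (median 19.6) in B6 and 20.3 to 37.7 CPM (median 32.8) in WSB (0.69 ± 0.17, adjusted p = 0.00210). Cacna1g (0.78 ± 0.21), Kcnq5 (0.67 ± 0.20), Cacna1i (1.62 ± 0.48), Hcn3 (0.86 ± 0.26) and Scn8a (0.74 ± 0.22) were higher in WSB, and so were Scn3a, Scn3b, Kcna2, Kcna3, Kcna4, Kcnc1 and Cacna1c. Scn4b, the beta subunit linked to resurgent current (-1.56 ± 0.45), and Kcnc4 (-0.71 ± 0.26) were lower.

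All 6 pluripotency markers were lower in WSB, with sums of 359.8 to 1036 CPM in B6 and 25.2 to 52.7 in WSB. Of the 10 pan-neuronal markers 2 were higher, with sums of 1959 to 4705 and 3766 to 5353 CPM, and of the 8 neural progenitor markers 4. The part of these markers in the result was not tested. Of the accompanying subunits 9 of 22 tested were higher and 2 lower, among them Kcnip2 (1.03 ± 0.18), Kcnip4 (1.23 ± 0.28), Cacna2d3 (1.39 ± 0.34) and Dpp6 (0.85 ± 0.22). Of the 12 axon initial segment and node genes Fgf14 (1.46 ± 0.38), Lgi1 (1.82 ± 0.62) and Nrcam (0.76 ± 0.31) were higher.

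In B6 NPC cultures with ID-8 20 of the 34 members fell and 0 rose, where 40.4% of genes were called, 22.0% lower and 18.4% higher, and the member median was -0.91 against -0.04 for all genes. Summed over the 34 genes, the level was 515 ± 171.8 CPM in controls and 258 ± 84.2 with ID-8 (SD, n = 6). By family 5 of 6 Kv1 genes, 3 of 5 sodium pores, 2 of 3 beta subunits, 3 of 5 high-voltage calcium pores, 2 of 3 T-type genes and 0 of 2 Kv7 genes fell. The members that did not pass were Scn7a, Scn9a, Scn4b, Kcna4, Kcnc2, Kcnc4, Kcnd1, Kcnq3, Kcnq5, Hcn2, Hcn4, Cacna1a, Cacna1c and Cacna1i. Within the first library block alone 4 members fell, within the second 12, and with the sample set as a replicate block 26. The shares of all genes called in these fits are not given here.

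Cacna1h had 52.6 to 142.7 CPM (median 75.3) in controls and 14.3 to 35.5 CPM (median 24.3) with ID-8 (-1.82 ± 0.23, adjusted p = 8.07e-06). Kcna5, a Kv1 gene, had 3.74 to 6.86 CPM (median 4.54) and 0.294 to 1.62 CPM (median 0.973) (-2.53 ± 0.39, adjusted p = 5.97e-05). Cacna1g had 36.1 to 62.1 CPM (median 46.9) and 11.5 to 26.0 CPM (median 23.2) (-1.24 ± 0.21, adjusted p = 0.000131). None of these 3 genes overlapped between controls and ID-8.

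Cacna1e, the R-type calcium pore, had 1.86 to 9.90 CPM (median 3.77) and 0.546 to 2.15 CPM (median 1.46), with some overlap (-1.62 ± 0.34, adjusted p = 0.000932). The A-type gene Kcnd3 (-1.67 ± 0.35), Scn2b (-0.91 ± 0.20), the delayed rectifier Kcnb2 (-1.44 ± 0.37) and Kcna2 (-1.64 ± 0.43) completed the 8 with the smallest p. Their adjusted p ran from 0.000947 to 0.00481. Within the first library block alone the calls of Cacna1e, Scn2b, Kcnb2 and Kcna2 were lost (edgeR, adjusted p from 0.117 to 0.422). Of the accompanying subunits 7 of 22 tested fell, among them Kcnab2 (-1.11 ± 0.19), Cacnb1 (-1.27 ± 0.31) and Cacna2d3 (-1.38 ± 0.35), and 2 rose, among them Kcng1 (1.71 ± 0.33). Of the axon initial segment and node genes 5 of 12 fell, with Ank3, the scaffold of that site, at -1.21 ± 0.23, Nfasc at -1.13 ± 0.27, Fgf12 at -1.31 ± 0.33 and Nrcam at -0.96 ± 0.31.

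Markers of cell types moved in the same B6 libraries. The pan-neuronal sum was 1959 to 4705 CPM in controls and 366 to 2455 with ID-8, with 6 of 10 markers lower and a median of -0.91. The pluripotency sum was 359.8 to 1036 CPM in controls and 879 to 2256 with ID-8, with 5 of 6 higher. Of the fibroblast markers 5 of 7 were higher, with sums of 85.8 to 194.9 and 137.6 to 546 CPM, and of the neural progenitor markers 5 of 8 were lower. The part of these markers in the result was not tested.

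In WSB NPC cultures with ID-8 4 members fell and 0 rose, where 9.57% of genes were called, 4.86% lower and 4.71% higher, and the member median was -0.27. Cacna1g had 54.0 to 113.00 CPM (median 74.4) in controls and 33.5 to 45.4 CPM (median 37.0) with ID-8 (-1.13 ± 0.21, adjusted p = 0.00155). Cacna1e had 3.81 to 8.31 CPM (median 6.21) and 1.23 to 2.64 CPM (median 2.19) (-1.56 ± 0.33, adjusted p = 0.00509). Cacna1h had 117.9 to 222 CPM (median 167.7) and 81.9 to 107.3 CPM (median 88.2) (-0.91 ± 0.22, adjusted p = 0.0129). None of the 3 overlapped, and these 3 calcium channel genes fell in both strains. Kcnd1 was the other member that fell in WSB (-0.69 ± 0.17, adjusted p = 0.0111). Within the first library block 1 member fell and within the second 0, and with the sample set as a replicate block 6 fell, again without the shares of all genes. Of the pluripotency markers 6 of 6 were higher, with sums of 25.2 to 52.7 CPM in controls and 65.5 to 385 with ID-8, while 0 of 10 pan-neuronal markers were called, and their part in the result was not tested.

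The difference between the strains' responses was tested directly. By edgeR 0 members were called, where 3.19% of genes were, 1.44% higher and 1.76% lower, with 12 at an unadjusted p under 0.05 and 1 called by DESeq2. The lowest adjusted p was 0.0886. With the sample set as a replicate block 12 members were called, each with the difference above 0 for WSB minus B6, among them Cacna1b (1.24 ± 0.26, adjusted p = 0.00921), Hcn3 (0.91 ± 0.20, adjusted p = 0.00950), Cacna1h (0.94 ± 0.22, adjusted p = 0.0137) and Kcnb2 (1.65 ± 0.40, adjusted p = 0.0142). The shares of genes above are for the fit without that block, and the share with it is not given here. Whether sample sets pair NPC libraries depends on the form of the pairing check, so both results are given.

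**Figure D3:**
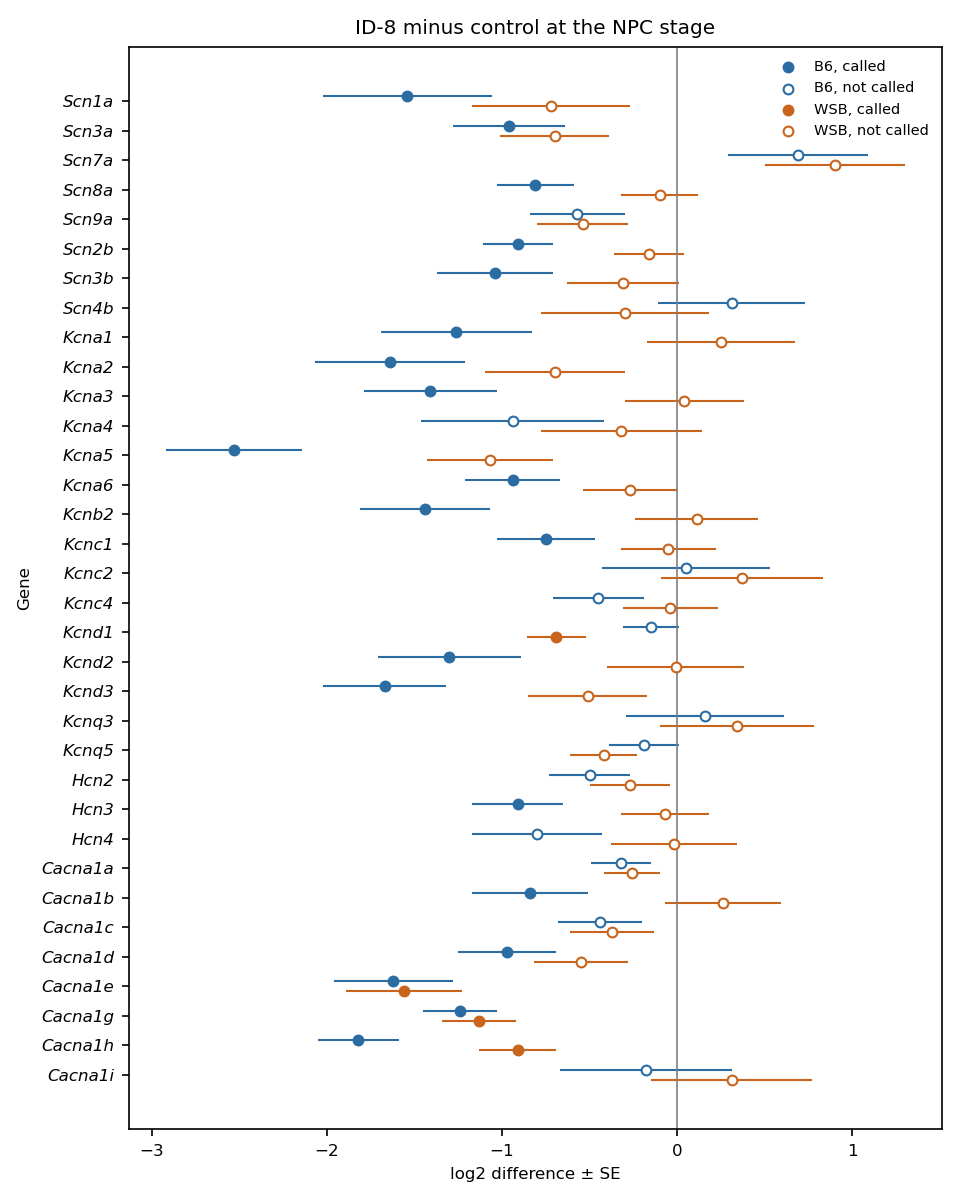
Log2 difference of ID-8 minus control at the NPC stage for each of the 34 genes, with points for the estimate, bars for 1 standard error and the strains in separate colours; filled points were called. In B6 20 genes are called below 0 and in WSB 4, and none is called above 0.

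At maturation the control cultures of the strains differed in 2 members, both higher in WSB, where 7.38% of 16954 genes were higher and 7.39% lower. Cacna1a read 100.9, 96.6, 123.7 and 112.6 CPM in B6 and 162.4, 183.3, 189.2 and 169.7 in WSB, without overlap (0.70 ± 0.15, adjusted p = 0.00548). Kcna5 read 1.54, 2.22, 3.59 and 4.24 CPM in B6 and 6.92, 4.31, 9.27 and 8.39 in WSB, also without overlap (1.32 ± 0.37, adjusted p = 0.0240). The call of Kcna5 was lost without B6 replicate 1 or 2 or WSB replicate 3 or 4, with adjusted p from 0.0580 to 0.0732. With the experiment as a replicate block 6 members were called, the 2 above and Cacna1g (1.10 ± 0.35), Kcnq5 (0.82 ± 0.25), Kcnc2 (0.91 ± 0.30) and Cacna1e (-0.87 ± 0.30). Within the first experiment, replicates 1 and 2, 4 members were higher in WSB, where 15.8% of genes were, and 6 lower, where 12.2% were, and within the second 9 and 0, where 14.6% and 15.2% were. Cacna1a, Cacna1g and Kcnc4 were higher in WSB within both, and Kcna5 was not called within the second (adjusted p = 0.0736). With 2 libraries a group, these fits measure the spread between libraries of 1 experiment. Of the fibroblast markers 4 of 7 were higher in WSB, with sums of 471 to 880.4 CPM in B6 and 1509 to 3959 in WSB, and their part in the result was not tested. Of the accompanying subunits 2 were higher, among them Kcnv1 (2.08 ± 0.52), and 2 lower, among them Kcns1 (-1.66 ± 0.48).

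With ID-8 at maturation, in B6 4 members rose, where 7.71% of genes did, and 3 fell, where 9.41% did. In WSB, where 5.89% of genes were called, 1 rose, against 2.86% of genes, and 1 fell, against 3.03%. Scn4b read 3.83, 3.81, 2.72 and 3.51 CPM in B6 controls and 26.1, 33.6, 5.44 and 8.00 with ID-8 (2.38 ± 0.47, adjusted p = 0.00296). In WSB it read 2.66, 2.69, 4.65 and 3.72 CPM and then 12.2, 19.8, 22.8 and 11.8 (2.26 ± 0.47, adjusted p = 0.0108). All ID-8 libraries lay above the controls in both strains, in B6 with replicates 1 and 2, which lack that experiment tag, far above replicates 3 and 4. Scn4b was the 1 member called in both strains.

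The Kv3 genes Kcnc4 and Kcnc1 rose in B6. Kcnc4 read 11.1, 11.8, 16.1 and 14.5 CPM in controls and 50.5, 54.8, 20.1 and 22.8 with ID-8 (1.46 ± 0.30, adjusted p = 0.00416). Kcnc1 read 58.1, 58.3, 93.3 and 79.8 CPM and then 137.7, 203, 105.3 and 130.99 (0.98 ± 0.26, adjusted p = 0.0175). ID-8 libraries lay above every control for both genes, with replicate 2 highest. In WSB Kcnc4 read 18.0, 16.4, 25.4 and 26.7 CPM in controls and 24.9, 29.8, 35.5 and 19.9 with ID-8 (0.34 ± 0.30, adjusted p = 0.581), and Kcnc1 48.5, 58.7, 91.7 and 95.7 and then 86.6, 124.7, 176.9 and 119.03 (0.77 ± 0.26, adjusted p = 0.0958). Both overlapped in WSB and did not pass the test, while within each experiment Kcnc1 did not overlap (0.95 ± 0.22, adjusted p = 0.0241 in the first and 0.67 ± 0.19, adjusted p = 0.0452 in the second). In B6 both genes were called within the first experiment (2.17 ± 0.13 for Kcnc4 and 1.52 ± 0.22 for Kcnc1), and not within the second, at 0.48 (adjusted p = 0.159) and 0.43 (adjusted p = 0.113).

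Calcium channel genes moved both ways in B6. The T-type gene Cacna1i read 20.5, 20.0, 18.5 and 15.4 CPM in controls and 45.2, 59.0, 28.1 and 29.7 with ID-8 (1.10 ± 0.31, adjusted p = 0.0222). The L-type pore gene Cacna1d read 24.1, 22.7, 34.5 and 35.3 CPM and then 12.4, 18.2, 17.2 and 18.2 (-0.84 ± 0.18, adjusted p = 0.00510). Neither overlapped between controls and ID-8. In WSB Cacna1i read 12.1, 15.8, 25.7 and 32.3 CPM in controls and 20.2, 27.6, 42.5 and 26.2 with ID-8, with overlap (0.43 ± 0.30, adjusted p = 0.478), and Cacna1d 28.0, 30.9, 38.3 and 34.2 and then 18.9, 20.8, 29.7 and 19.6, with overlap (-0.57 ± 0.18, adjusted p = 0.0773). Within each experiment Cacna1d did not overlap in WSB, and with the experiment as a replicate block it was called (-0.57 ± 0.14, adjusted p = 0.0113).

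Scn3a (-0.91 ± 0.26, adjusted p = 0.0256) and the atypical sodium channel gene Scn7a (-1.28 ± 0.41, adjusted p = 0.0433) fell in B6. In WSB Kcna5 fell, from the control values above to 2.39, 3.31, 4.40 and 1.36 CPM, with overlap (-1.34 ± 0.37, adjusted p = 0.0438). Leaving out 1 library ended the call of Kcnc1 for B6 control replicates 1 and 2 and ID-8 replicate 2, of Cacna1i for ID-8 replicate 2 and control replicates 3 and 4, of Scn3a for control replicates 3 and 4 and ID-8 replicates 1, 3 and 4, and of Scn7a for every control replicate and ID-8 replicates 3 and 4. It ended that of Kcna5 in WSB for control replicates 1, 3 and 4 and ID-8 replicates 1, 2 and 4. By edgeR 0 members differed in response between the strains, where 0.460% of genes did, 0.377% higher and 0.0826% lower, with 1 at an unadjusted p under 0.05, Kcnc4 (-1.12 ± 0.42), and 0 by DESeq2. Within the first experiment alone Kcnc4 (-1.53 ± 0.18) and Cacna1g (-1.16 ± 0.16) differed, and within the second Scn7a (1.58 ± 0.29) and Scn1a (1.26 ± 0.24).

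With the experiment as a replicate block 13 members were called in B6 and 6 in WSB, in place of 7 and 2. The share of all genes called with that block is not given here. In addition to the members above, Kcna2 (1.15 ± 0.28 in B6, 1.07 ± 0.28 in WSB) and Hcn4 (0.77 ± 0.19 and 0.70 ± 0.20) were then higher in both strains, Kcnq3 (1.00 ± 0.28), Kcnq5 (0.85 ± 0.25), Kcna1 (1.07 ± 0.36) and Scn3b (0.45 ± 0.14) were higher in B6, and Kcnc1 was higher in WSB (0.79 ± 0.24). Within the first experiment 16 members rose and 1 fell in B6, where 16.6% of genes rose and 14.8% fell, and within the second 4 rose and 12 fell, where 13.8% and 16.4% did. In WSB 9 rose and 1 fell in the first, where 7.76% and 5.75% did, and 4 and 4 in the second, where 7.44% and 8.21% did.

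Scn4b, Cacna1i and Kcnq3 rose within both experiments in B6, and Cacna1d fell within both. Cacna1g and Scn2b, described after their values were seen, were called in opposite directions. Scn2b read 90.9, 88.2, 141.6 and 125.6 CPM in B6 controls and 151.9, 198.4, 75.0 and 83.2 with ID-8 (0.94 ± 0.20 in the first experiment, -0.77 ± 0.21 in the second). Cacna1g read 26.5, 27.8, 24.1 and 23.6 CPM and then 39.7, 43.7, 10.4 and 11.3 (0.59 ± 0.11 and -1.15 ± 0.23). Replicates 1 and 2 with ID-8 lay above their controls and replicates 3 and 4 below. Whether the response differs between the experiments was not tested. In WSB Scn4b, Kcnc1 and Scn8a rose and Cacna1g fell within both. Within the first experiment alone Scn3a and Scn7a were not called in B6 (adjusted p = 0.107 and 0.155), nor was Kcna5 in WSB (adjusted p = 0.0809). The pan-neuronal sum in B6 went from 2421 to 2489.6 CPM in controls to 3880.2 to 4145 with ID-8 in the first experiment, and from 2082 to 2374 to 1724 to 1828 in the second, and the part of this in the result was not tested.

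Of the accompanying subunits 5 rose in B6, and Cacna2d3 (1.57 ± 0.25 in B6, 1.24 ± 0.25 in WSB) and Kcns3 (1.22 ± 0.23 and 0.87 ± 0.23) rose in both strains. Of the axon initial segment and node genes Lgi1 fell in both (-0.88 ± 0.17 and -1.11 ± 0.17), and Nrcam (1.12 ± 0.29) and Cntn1 (1.05 ± 0.29) rose in B6. Glial markers moved in the same libraries: 4 of 6 oligodendrocyte markers tested were higher in B6, with sums of 39.5 to 95.2 CPM in controls and 248 to 395 with ID-8, and 2 in WSB, with sums of 94.8 to 131.9 and 158.7 to 283 CPM. Sox10, a defining marker of that lineage, was at most 0.156 CPM in these mature libraries. Of 7 astrocyte markers 2 and 1 were higher, and 0 of 10 pan-neuronal markers were called in either strain. The part of the glial markers in the result was not tested.

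**Figure D4:**
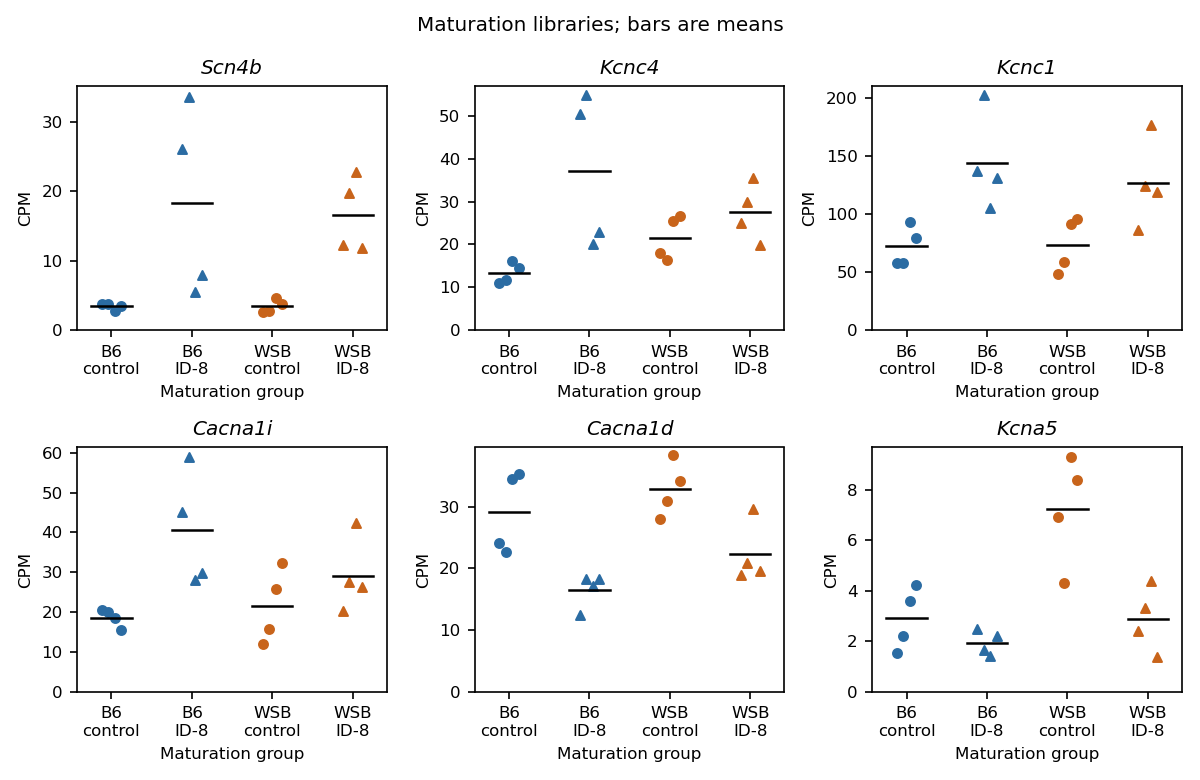
Level in CPM of 6 genes in every maturation library, control and ID-8, by strain; each point is 1 library. Scn4b lies above the controls in all ID-8 libraries, and in B6 2 of them, at 26.1 and 33.6 CPM, stand above the other ID-8 libraries.

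At the axon stage uncut control cultures differed between the strains in 2 members, both lower in WSB, where 7.56% of 18106 genes were lower and 5.68% higher. Scn2b, with the values given above, did not overlap (-1.34 ± 0.32, adjusted p = 0.00773). Scn7a read 3.22, 2.17, 2.60 and 3.28 CPM in B6 and 0.415, 0.928, 1.54 and 0.0479 in WSB, also without overlap (-1.86 ± 0.53, adjusted p = 0.0225). The call of Scn7a was lost without B6 replicate 1 or 4 or WSB replicate 1, 2 or 4, within the second library block and with first runs alone, with adjusted p from 0.0519 to 0.0777. The sums of fibroblast markers were 2123 to 7211 CPM in B6 and 60.5 to 2165 in WSB, with 0 of 7 called, and 1 of 7 astrocyte markers was higher in WSB. The part of these in the result was not tested.

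Axotomy was compared with uncut cultures in each strain, with and without ID-8. In all 4 comparisons edgeR called 0 of the 34 members, where 0% of genes were called, and DESeq2 called 0 members in each. In this fit, without a replicate block, 0 members in B6 and 3 in WSB controls stood at an unadjusted p under 0.05, and 0 and 0 with ID-8. The differences were below 0 for 32 members in B6 controls, with a median of -0.29 and a range of -0.49 to 0.05, and for 33 in WSB controls, with a median of -0.31. Of all genes 48.2% and 48.3% were below 0. With ID-8 the count was 31 in B6 (median -0.27) and 21 in WSB (median -0.13), or 26 (median -0.17) in WSB without replicate 3 of the cut cultures. The 10 pan-neuronal markers had medians of -0.24 and -0.26 in B6 and WSB controls, and their part in the result was not tested.

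Sample sets were taken as pairing the axon libraries, so the comparisons were repeated with the set as a replicate block. Without replicate 3 of the cut WSB axon cultures with ID-8, 2 members then fell in cut WSB controls, Scn1a (-0.77 ± 0.19, adjusted p = 0.0490) and Cacna1i (-0.92 ± 0.23, adjusted p = 0.0490), and with that library 0. The 3 other cut comparisons had 0 in both fits. With the block 15 members in B6 and 19 in WSB controls stood at an unadjusted p under 0.05, and 0 and 1 with ID-8. Without replicate 3 of the cut WSB axon cultures with ID-8 these counts were 19 and 23, and 0 and 2. In both fits 33 of the 34 differences were below 0 in the controls of each strain. The share of all genes at that p is not given here for these fits. Scn1a, described after its values were seen, read 19.8, 30.1, 16.6 and 17.1 CPM in cut B6 libraries and 25.4, 13.4, 22.3 and 23.3 in cut WSB libraries. In B6 these overlapped with the uncut values given above. In WSB they did not overlap with the uncut values given above, which are those of replicates 1 to 3. The value of uncut WSB replicate 4 is not given here. By edgeR 0 members differed between the strains in their response to the cut, with 0 at an unadjusted p under 0.05 and 0 by DESeq2.

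**Figure D5:**
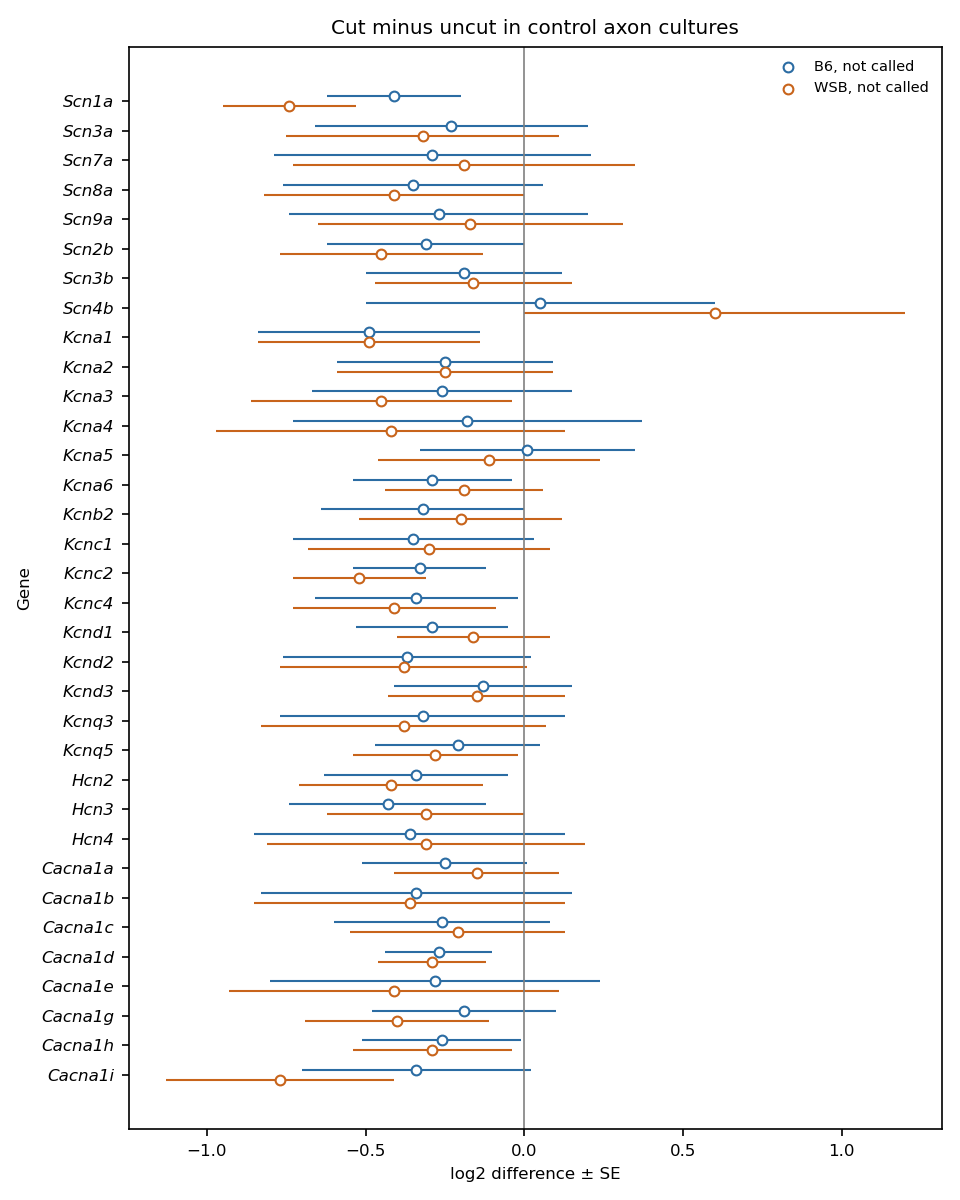
Log2 difference of cut minus uncut axon cultures for each of the 34 genes, with points for the estimate, bars for 1 standard error and the strains in separate colours; in this fit, without a replicate block, no gene was called. In controls 32 of 34 points lie below 0 in B6 and 33 in WSB.

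With ID-8 in uncut axon cultures edgeR called 0 members in either strain, where 0% of genes were called, with 4 members at an unadjusted p under 0.05 in B6 and 5 in WSB, and 0 and 1 by DESeq2. With the sample set as a replicate block 1 member was called in B6 and 3 in WSB, and without replicate 3 of the cut WSB axon cultures with ID-8 as well, 4 and 10. The share of all genes called in these blocked fits is not given here. Cacna1a was lower in the blocked fit in both strains (-0.46 ± 0.11, adjusted p = 0.0419 in B6 and -0.50 ± 0.12, adjusted p = 0.0334 in WSB), and Kcna5 in WSB (-1.68 ± 0.35, adjusted p = 0.0175).

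Scn4b, described after its values were seen, read 1.80, 0.620, 2.65 and 1.85 CPM in uncut B6 controls and 3.99, 2.49, 4.06 and 3.33 with ID-8. In WSB it read 0.853, 0.534, 0.414 and 0.144 CPM in controls and 7.88, 1.84 and 1.67 with ID-8. The groups overlapped in B6 and did not in WSB. Its difference in WSB was 3.10 ± 0.64, adjusted p = 0.174 without the block and 2.71 ± 0.40, adjusted p = 0.00465 with it. In B6 it was called with the block and without that 1 library (1.10 ± 0.26, adjusted p = 0.0212).

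Some members share sequence or position with other genes, which can move reads between them. Of the 50-base stretches sampled every 10 bases of their transcripts, 5.96% of Scn1a, 8.05% of Scn3a and 6.14% of Scn9a occur in each other, in Scn2a or in Gm13629, and some of those of Scn3a in Scn8a. Kcna6 shared 37.8%, with Gm26673 on the other strand, whose mean was 0.146 CPM, and with Kcna5, and Hcn3 11.8% with Pklr, at 0.230 CPM. All other members shared at most 4.07%. Cacna1d overlaps Chdh and Dcp1a on the other strand, the higher of which had a mean of 40.8 CPM, and Cacna1c overlaps Dcp1b, at 13.9 CPM. The strand setting of the counting is not given in the sources used here, so values of Cacna1c, Cacna1d and Kcna6 are uncertain.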

How the data were processed

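Polyadenylated RNA was sequenced in 76 samples, which form 70 libraries because 6 libraries had 2 runs, with a stranded kit per the labels' protocols. The deposited values are expected counts per gene made by the authors, of which 9.32% were not whole. The submitters' processing notes name Bowtie2, RSEM, featureCounts, limma and the build GRCm38, without versions. Runs were summed and rounded to whole numbers. Counts were scaled with TMM, filtered with filterByExpr and tested over all genes in R 4.3.3 with edgeR 4.0.16 (quasi-likelihood, robust), and a Benjamini-Hochberg adjusted p under 0.05 was a call. In all, 5 fits gave 23 comparisons. Library block, a range of library numbers in the titles, was a term of the NPC and axon fits. After ± stand standard errors of log2 differences, and standard deviations of levels. Without molecular identifiers, reads cannot be taken as independent molecules. The first comparison of each fit was also run on simulated counts, drawn independently for each library with the same spread for all genes. Library blocks and sample sets were not simulated, so that run cannot speak to paired libraries. Its outcome is not given here. Alternatives were DESeq2 1.42.0, its size factors, no filter, first runs, single library blocks, replicate blocks and leaving out libraries.

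Sample sets are libraries of a strain that share a set name or number in the deposited sample names, and no label says what they shared in culture. Whether libraries of a set are paired was checked by correlating their deviations from the group means. At the axon stage all 21 pairs in B6 exceeded 0.1 (lowest 0.65), and in WSB 19 of 21 (lowest -0.10), or 19 of 19 (lowest 0.60) without replicate 3 of the cut WSB axon cultures with ID-8, so the sets were taken as paired, in WSB without that library. At the NPC stage all 3 pairs in each strain and library block exceeded 0.1 (lowest 0.16). A shift shared by a library block raises these correlations. A second form, with deviations taken within group and library block, was therefore added, after the calls of the blocked fits had been seen. In it all 3 pairs passed in 3 of the sets, and in the second block of WSB 2 of 3 (lowest 0.02). Pairing at the NPC stage is not settled, and both fits are given. At maturation the deposited sample names tag replicates 3 and 4 of each group as an experiment, and 40 of 48 pairs exceeded 0.1 (lowest -0.22). Fits with the experiment as a replicate block, and within each experiment (added after the data were seen), are given beside the main ones.

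The members and the other gene lists were chosen with earlier results of these data known. Each comparison names its called members, at most 8 per direction by smallest p, with library values for at most 5 that have a mean of at least 1 CPM, and at most 4 called genes of each other list. Promoters were matched by symbol.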

Additional observations from a re-analysis of the deposited data

Results flagged for a closer look

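Cacna1e read 9.90 CPM in B6 control NPC replicate 4, while the other libraries of that group lay between 1.86 and 4.52 CPM. This gap is wide against the range of the group, and among the 91 groups of values examined chance gives such a gap in about 1 in 20. The change of Kcnq3 from the NPC to the axon stage differed between the strains by -2.24 on the log2 scale for WSB minus B6 (edgeR interaction test, adjusted p = 0.0438), and this call was lost without any 1 of 8 libraries.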

How the results depend on the processing

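Counts of called members stayed within 1.5 times the main count in 257 alternatives and moved further in 55. Alternatives with 0 members beside a main count of 0 are among the 257. Leaving out 1 library always gave 0 for the cut, cut response, uncut axon ID-8 and maturation response comparisons. This says little on how stable the other counts are. Of the values of named members 0 changed direction, and 90 lost their call while 1076 kept it. Within single library blocks the NPC strain comparison gave 2 members in the second block, ID-8 in B6 4 in the first and 12 in the second, ID-8 in WSB 1 and 0, and the axon strain comparison 1 in the second. DESeq2 gave 1 member for the NPC response difference, 5 for the maturation strain comparison, 4 for ID-8 in mature WSB and 1 for ID-8 in uncut WSB axon cultures, and no filter gave 1 for ID-8 in mature WSB. The replicate block gave 12 members for the NPC response difference with sample sets (chosen after seeing the data), 6 for the maturation strain comparison, 13 and 6 for ID-8 in mature B6 and WSB, and 1 and 3 for ID-8 in uncut B6 and WSB axon cultures. Within the first and the second mature experiment (chosen after seeing the data) the strain comparison gave 10 and 9 members, ID-8 in B6 17 and 16, ID-8 in WSB 10 and 8, and the response difference 2 and 2. Without axon WSB ID-8 cut replicate 3 (chosen after seeing the data) ID-8 in uncut B6 and WSB axon cultures gave 4 and 10 in the blocked fit, and the cut comparison in WSB controls 2. Sample sets were formed within a strain, so strain comparisons have no sample set block. At the NPC stage a planned fit took the replicate numbers of the first library block, shared by the strains, as the block. Its member counts are not given here. At the NPC stage some set names and numbers recur in both strains. Over all groups of the first library block, 16 of 18 pairs with the same replicate number exceeded 0.1 (lowest 0.07). With deviations within group and library block 14 of 18 did (lowest -0.11). Leaving out 1 library gave 1 to 4 members for the maturation strain comparison, 4 to 7 and 1 to 3 for ID-8 in mature B6 and WSB, 1 to 3 for the axon strain comparison and 0 to 2 for the stage difference. Comparisons within the NPC stage were not repeated in this way. There the strain calls of Cacna1g, Kcnq5, Scn4b and Kcnc4 were lost within each library block, and that of Kcnc4 also with no filter (edgeR, adjusted p = 0.0564). The calls of Cacna1g, Cacna1h and Kcnd1 for ID-8 in WSB were lost within each block too. For ID-8 in B6 the calls of Cacna1e, Scn2b, Kcnb2 and Kcna2 were lost within the first block. The cause of these changes was not tested. For fits within 1 library block or with a replicate block, the share of all genes called is not given here. Their member counts can therefore not be set against that share. Depth limits low levels most, and levels near those of Scn7a in WSB axon cultures are the least precise.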
